A study of Mus musculus with 12 samples.

Results

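The genes described are those of the cytosolic ribosomal proteins, taken from the deposited mouse liver count table by symbol: Rpl or Rps followed by a number and at most 1 letter, together with Rplp0, Rplp1, Rplp2 and Rpsa. The rule gave 83 of the 50499 genes listed, 51 named for the large subunit and 32 for the small subunit. The rule reads the symbol alone, although it was set with earlier results of these data known. It left out ribosomal proteins with other kinds of name, such as Fau, Rack1 and Rps3a1, which are given separately. Of the 83 genes, 75 passed the filter on low counts and were tested, 45 of the large and 30 of the small subunit.

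The study fed male C57Bl/6NCrl mice, wild type in genotype, chow and normal water, or a Western diet plus sugar water, starting at an age of 6 weeks, as a model of metabolic dysfunction-associated steatohepatitis. After 12 weeks on the diet the mice received AAV8 particles through the tail vein, and liver RNA was taken 12 weeks later. Every group carried a vector with TBG, a promoter that is active in hepatocytes, so other liver cells were not the intended target. The 4 groups of 3 libraries were chow with the empty vector (chow null), chow with a vector meant to silence Aatf (chow siAATF), Western diet with the empty vector (Western null) and Western diet with the silencing vector (Western siAATF). Whether replicates come from separate mice is not stated, so the p-values rest on a spread between libraries that may be technical only.

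Each ribosome is built from ribosomal RNA and a fixed set of proteins, made in the cytoplasm and imported into the nucleolus for assembly. Their mRNAs begin with a run of pyrimidines, the 5′ terminal oligopyrimidine (TOP) sequence, which lets mTORC1, through the RNA-binding protein LARP1, switch their translation together. Hepatocytes are rich in ribosomes because they make most plasma proteins, and Myc is a known transcriptional driver of ribosome production.

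Stretches of DNA with a run of pyrimidines near an annotated start site are shown for 9 genes that were higher on Western diet in at least 1 comparison. They are also shown for Rpl4 and Rps26, which were not. Counted from the annotated start, the runs shown began between -43 (Rps19) and 41 (Rpl41), so they need not be the TOP sequence. Whether a run begins the mRNA was not tested. Each window of 30 bases is from RefSeq promoters (build GRCm38.p6, while the counts were made on GRCm39) and is written 5′ to 3′ on the gene's strand. Capitals mark the longest run of C and T, at least 7 letters from a C, found within 50 bases of an annotated start site. Where a gene has several start sites, the window with the longest run is shown, and a run at the right edge may continue past the sequence held.
Rps19 (chr7:24884623-24884652, plus strand): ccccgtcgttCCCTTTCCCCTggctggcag
Rps12 (chr10:23787182-23787211, minus strand): ccaccgccggCCTTTTCCCCTgccgccgcc
Rps23 (chr13:90923142-90923171, plus strand): tgggtccttcctgcaCCTCCTCTCTCTTTC
Rpl9 (chr5:65391382-65391411, minus strand): cgaaagacgttCTCTCTTTgccccatctac
Rpl15 (chr14:18270971-18271000, minus strand): tgggagaaagCCTTCTTCCTTTCCTCTggc
Rpl12 (chr2:32961732-32961761, plus strand): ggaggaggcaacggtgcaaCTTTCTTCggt
Rpl35a (chr16:33056467-33056496, plus strand): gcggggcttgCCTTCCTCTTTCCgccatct
Rpl31 (chr1:39367823-39367852, plus strand): cctcgccacaCCTCTTCCTCCTCgcctccc
Rpl41 (chr10:128549119-128549148, minus strand): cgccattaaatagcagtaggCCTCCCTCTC
Rpl4 (chr9:64173403-64173432, plus strand): aggagcgtggCCTTCTCCTCTCCCCgtcat
Rps26 (chr10:128626483-128626512, minus strand): gccgccggatCCTCTTTCgagtcttggctc

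Rpl4 and Rps26 hold a pyrimidine run as the others do. In all, 61 of the 83 genes had a RefSeq promoter entry under their symbol, with 73 start sites. A run was found in 53 of these 61 (86.9%), against 44.5% of the 27025 genes in the promoter table. Rps27a, which belongs to the genes that rose on Western diet, had no entry.

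The windows from 250 bases before to 50 bases after each start were also searched on both strands for short motifs. CCGGAAG, a core recognised by ETS-family factors such as GABP, was present in 25 of the 61 genes (41.0%) against 9.93% of all genes in the table. GGGCGG, the GC box of Sp1-type factors, was present in 59.0% against 38.2%. AAGATGGC, a YY1-type element that can share its first letters with the end of CCGGAAG, was present in 8.20% against 3.19%. The TATA-box letters TATAAA were present in 11.5% against 15.7%. A match is a description of the letters and not of a bound site. Among the 56 matched genes that were tested, 24 held CCGGAAG and 32 did not, with 9 and 16 called higher on Western diet averaged over the vectors and median log2 fold changes of 0.55 and 0.59. The pyrimidine run was present in 49 of the 56, of which 24 were called (median 0.59), and absent in 7, of which 1 was called (median 0.35). These are descriptions, with no test between the classes.

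Western siAATF replicate 1 stood apart from the other libraries because it carried skeletal muscle RNA. It held 27476 counts on 12 skeletal muscle genes (titin, actin and myosin genes among them), 0.739% of its counts without 18S, while the other 11 libraries held 0 to 65. The share of counts on the ribosomal protein genes is therefore also given without it. So are their calls in the siAATF diet comparison, the averaged comparison and the vector comparison on Western diet. Results for other genes, cell type markers, correlations and the separation of libraries include it. Total counts per library ran from 1646853 to 13469819, and Rn18s-rs5, an 18S ribosomal RNA gene, took 0.871% to 50.8% of them, over 25% in 4 libraries (chow null replicates 1 and 2, chow siAATF replicate 1 and Western siAATF replicate 2). As a check of the vector, Aatf was at 36.8, 26.5 and 31.6 CPM (read counts scaled to a common library size by TMM) on chow with the null vector and 39.2, 24.6 and 40.5 CPM with siAATF, and on Western diet at 27.6, 21.1 and 29.997 CPM with the null vector and 26.98, 27.5 and 28.2 CPM with siAATF. The libraries labelled siAATF were thus not lower in Aatf than those labelled null (log2 0.11 ± 0.24 on chow and 0.06 ± 0.25 on Western diet, SE), and group names follow the labels only. Of 10 hepatocyte markers, 10 were measured and none was at 0.

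The 75 tested genes were expressed in all 12 libraries, with mean levels from 23.6 to 518 CPM and a median of 105 CPM. Per kb of mRNA, using transcript lengths from the GENCODE vM21 annotation, the highest levels were those of Rpl19, a large subunit protein (522 CPM per kb), Rps15, of the small subunit head (383), Rplp1, of the flexible stalk that recruits translation factors (352), and Rpsa, the laminin receptor homologue of the small subunit (324). The lowest were Rps20 (26.1), Rpl35 (30.7), Rps26 (37.8) and Rpl39 (38.6), and the annotated Rps20 transcript of 3706 bases is far longer than that of the other genes, which lowers its value on this scale. The median within-group SD of log2 CPM was 0.32 for these genes and 0.43 for all 11934 genes tested.

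How reads were counted limits these levels. Reads were counted over whole gene spans, introns included, and 29 of the 75 genes hold other annotated genes within their span, as many ribosomal protein genes host small nucleolar RNAs. Rps4l and Rpl32l lie wholly inside another gene and were listed at 0 in all 12 libraries. Rpl28 overlaps a neighbour over 76.3% of its span and had 34 counts in all. The table also lists 316 processed pseudogenes named for these genes, up to 24 for a single parent (Rpl31). The copies held 559 counts in all, against 628215 on the 83 genes, but how reads with several matches were treated is not given in the sources used here, so levels of genes with near-identical copies are uncertain. Across the 75 genes, the level per kb and the number of named copies had a Spearman rho of 0.27, given as a description.

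Paralogs with tissue-restricted expression were at or near 0 in liver. Rpl10l and Rpl39l, the testis paralogs of Rpl10 and Rpl39, had no count in any library, which by a floor of 3 counts allows between 0.185 and 1.69 CPM depending on the library. Rpl3l, the paralog of Rpl3 in heart and skeletal muscle, had 42 counts in Western siAATF replicate 1, 1 count in Western null replicate 1 and 0 in the other libraries, so that its signal lay in the library with muscle RNA. Rpl6l had 15 counts over 8 libraries. By contrast Rps27l, the p53-responsive paralog of Rps27, was at 28.2 to 54.7 CPM in the chow libraries and 32.1 to 106 in the Western libraries, with counts in every library.

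Western diet was accompanied by a larger share of ribosomal protein RNA with both vectors. The 83 genes took 0.884%, 1.00% and 0.829% of the counts without 18S in the chow null libraries and 0.954%, 0.891% and 0.929% in chow siAATF. On Western diet they took 1.32%, 1.51% and 1.23% with the null vector and 1.52%, 1.32% and 1.17% with siAATF. All 6 Western libraries lay above all 6 chow libraries, and the library with muscle RNA was the highest of its group. Group means were 0.906 ± 0.0895% (SD, n = 3) for chow null, 0.925 ± 0.0318% for chow siAATF, 1.35 ± 0.144% for Western null and 1.34 ± 0.172% for Western siAATF. Without the library with muscle RNA, the last was 1.25%. With 18S kept in the total the diets no longer separated, since Western siAATF replicate 2, in which 18S took 50.8%, was at 0.647%, below 5 of the 6 chow libraries (0.559% to 0.890%). In bulk liver, a change in the mix of cells and a change in the RNA per cell cannot be told apart.

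**Figure D1:**
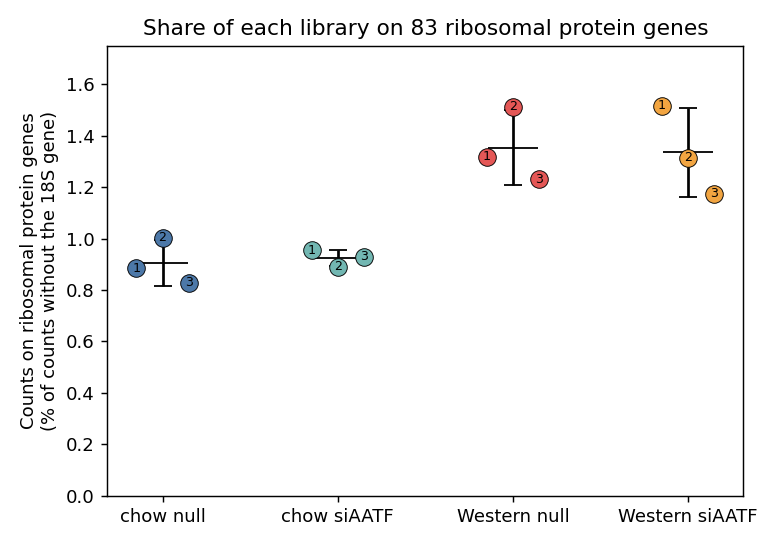
Share of each library's counts (percent of counts without the 18S gene, y axis) on the 83 ribosomal protein genes, by group (x axis); numbered points are libraries, bars are the mean and SD of 3. The Western libraries sit between 1.17% and 1.52%, and the chow libraries between 0.829% and 1.00%.

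With the null vector, Western diet raised 10 of the 75 tested genes and lowered none (13.3% of them higher, where 6.44% of all 11934 genes were called higher and 6.77% lower) in the edgeR quasi-likelihood test at a Benjamini-Hochberg adjusted p of 0.05. Among the 10 were the small subunit genes Rps12, Rps14, Rps19, Rps23 and Rps27a and the large subunit genes Rpl9, Rpl15, Rpl31 and Rpl41. The log2 fold change was positive for 73 of 75 genes, with a median of 0.52 (1.43-fold), while the median over all genes was -0.028. The medians were 0.39 for the large and 0.58 for the small subunit. In 34 of the 75 genes all 3 Western null libraries lay above all 3 chow null libraries, as did 17.7% of all genes tested, and in none of the 75 were they all below.

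Rps19, needed to mature the small subunit and the gene most often mutated in Diamond-Blackfan anaemia, was at 60.8, 73.97 and 61.4 CPM in chow null and 121, 163 and 126 CPM in Western null. The groups did not overlap, and its log2 fold change was 1.07 ± 0.23 (2.10-fold, adjusted p = 0.00715). Rps12, a protein of the small subunit beak, was at 87.2, 79.6 and 82.1 CPM in chow null and 171, 219 and 133 CPM in Western null. The lowest Western value was again above the highest chow value (log2 1.07 ± 0.26, adjusted p = 0.0138). Rps27a, which is made as a fusion with ubiquitin, was at 76.8, 88.1 and 78.3 CPM and 106, 239.9 and 148 CPM. Its groups were separate as well, with Western null replicate 2 far above the other Western null libraries (log2 1.03 ± 0.28, adjusted p = 0.0235, edgeR quasi-likelihood test).

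Rps14, the gene lost in the 5q- syndrome, was at 41.9, 109.5 and 88.5 CPM in chow null and 159, 235 and 169.6 CPM in Western null, again without overlap. It had the largest fold change of the 75 in this comparison, 1.25 ± 0.39 in log2, but also a wide error (adjusted p = 0.0460). Rps23, a protein of the decoding centre, passed at log2 0.74 ± 0.22 (adjusted p = 0.0344), with 84.8, 71.7 and 66.8 CPM in chow null and 114, 133 and 127 CPM in Western null.

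In the large subunit, Rpl9, which lies near the site where elongation factors bind, was at 54.05, 62.1 and 59.9 CPM in chow null and 123, 157 and 99.7 CPM in Western null. It had the smallest adjusted p of the 75 genes, 0.00452, with a log2 fold change of 1.11 ± 0.22 (2.16-fold). Rpl41, the shortest ribosomal protein, was at 40.6, 37.3 and 38.7 CPM and 94.8, 112 and 61.97 CPM, with no overlap (log2 1.20 ± 0.27, adjusted p = 0.00902). Rpl15, a large subunit protein needed for ribosomal RNA processing, was at 29.7, 31.6 and 32.8 CPM and 55.8, 49.7 and 47.1 CPM. The levels were tight within each group (log2 0.69 ± 0.21, adjusted p = 0.0383). Rpl31, beside the exit of the peptide tunnel, passed narrowly at log2 0.73 ± 0.23 (adjusted p = 0.0453).

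Only 2 of the 75 genes had a negative log2 fold change in this comparison, Rps26 (-0.34 ± 0.42) and Rpl23 (-0.12 ± 0.28), and neither passed (adjusted p = 0.631 and 0.815, edgeR quasi-likelihood test). Rps26, which lines the mRNA exit channel, was at 41.02, 12.99 and 19.5 CPM in chow null and 23.2, 8.86 and 27.03 CPM in Western null, with wide overlap. Without chow null replicate 1 both values turned positive (0.25 and 0.22). Rpl4, a protein of the peptide tunnel wall, was at 319, 411 and 268 CPM and 348, 356 and 340.2 CPM and showed no difference beyond its spread (log2 0.07 ± 0.23).

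The count of calls depended on single libraries and on gene span. It fell to 2 without Western null replicate 2, to 3 without chow null replicate 3, to 5 without chow null replicate 1 or Western null replicate 1, and to 6 without chow siAATF replicate 3 or Western null replicate 3, and rose to 16 without Western siAATF replicate 3. These genes are short (median span 3175 bases, against 25356.5 for all genes tested), and libraries differed in how counts followed span: the fitted trend at the genes' spans on the log2 scale averaged -0.16 for chow null, -0.026 for chow siAATF, 0.18 for Western null and 0.079 for Western siAATF. With this trend removed, the median fell from 0.52 to 0.15 and 2 genes passed, Rpl9 and Rps19 (log2 0.74 ± 0.22 and 0.80 ± 0.22).

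The same diet comparison with the silencing vector used none of the same libraries, although all were scaled and fitted together. Western siAATF over chow siAATF raised 9 of the 75 genes and lowered none, where 0.763% of all genes were called higher and 0.721% lower. Among the 9 were Rpl9, Rpl12, Rpl15, Rpl17 and Rpl35a of the large and Rps12, Rps19 and Rps27a of the small subunit. The median log2 fold change was 0.56 (1.48-fold), against 0.044 for all genes, and 72 of 75 values were positive. All 3 Western libraries lay above all 3 chow libraries in 37 of 75 genes and in 9.24% of all genes.

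Rpl9 was at 60.6, 50.7 and 55.2 CPM in chow siAATF and 151, 119.8 and 114 CPM in Western siAATF, and Rps19 at 72.8, 56.3 and 75.04 CPM and 203, 135 and 146 CPM. For both, every Western library was above every chow library. Their log2 fold changes were 1.21 ± 0.22 (adjusted p = 0.0139) and 1.25 ± 0.23 (adjusted p = 0.0141, edgeR quasi-likelihood test). Rps12 was at 80.7, 81.4 and 74.8 CPM and 186, 242 and 118 CPM (log2 1.21 ± 0.26, adjusted p = 0.0311), and Rps27a at 71.7, 68.5 and 86.3 CPM and 222, 160.0 and 139 CPM (log2 1.20 ± 0.28, adjusted p = 0.0406).

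Rpl17, which lines the peptide tunnel, was at 141, 98.4 and 116 CPM in chow siAATF and 277, 359 and 181 CPM in Western siAATF. The groups did not overlap, and Western siAATF replicate 2 was well above the other Western libraries (log2 1.21 ± 0.27, adjusted p = 0.0333). Rpl12, at the base of the stalk, was at 78.6, 79.97 and 73.4 CPM and 167, 197 and 109 CPM (log2 1.03 ± 0.23, adjusted p = 0.0342). Rpl15 was at 27.8, 33.98 and 24.04 CPM and 53.96, 53.1 and 51.1 CPM (log2 0.88 ± 0.21, adjusted p = 0.0451). Rpl35a, a large subunit protein also mutated in Diamond-Blackfan anaemia, passed at log2 0.90 ± 0.22 (adjusted p = 0.0470).

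The 3 negative values were all close to 0: Rpl4 (-0.02 ± 0.23), Rpl29 (-0.01 ± 0.22) and Rps29 (-0.001 ± 0.247), none past the threshold. Without Western siAATF replicate 1, the library with muscle RNA, none of the 75 genes passed and the median fell from 0.56 to 0.41. The log2 fold changes of Rpl9 and Rps19 were then 1.07 and 1.04, at adjusted p = 0.0647 and 0.0699 (edgeR quasi-likelihood test). Over all 23 alternatives, the adjusted p of Rpl9 ran from 2.70e-05 to 0.0996 and that of Rps19 from 3.78e-05 to 0.110. None passed without chow siAATF replicate 2 or replicate 3 either, 2 passed without chow siAATF replicate 1 or chow null replicate 3, 3 without Western null replicate 1 or 3, 4 without Western null replicate 2 or Western siAATF replicate 2, and 23 without Western siAATF replicate 3. With the span trend removed the median was 0.46, and Rpl9, Rps19 and Rpl36 passed.

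The 2 diet comparisons named partly the same genes. Of the genes called, 6 passed in both, which is 60% of the 10 and 66.7% of the 9. Among the 6 were Rps12, Rps19, Rps27a, Rpl9 and Rpl15. Without the library with muscle RNA no gene passed with siAATF, so none passed in both. Across the 75 genes the log2 fold changes of the 2 comparisons had a Pearson r of 0.64 and a Spearman rho of 0.67, as a description over genes that are not independent, and 70 of 75 were positive in both. Rpl34, a large subunit protein, had the largest value with siAATF, 1.38 ± 0.34, but did not pass (adjusted p = 0.0538, edgeR quasi-likelihood test), and had 0.62 ± 0.34 with the null vector. Rps14 had 0.68 ± 0.39 with siAATF (adjusted p = 0.430) and Rpl41 0.60 ± 0.27 (adjusted p = 0.288).

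**Figure D2:**
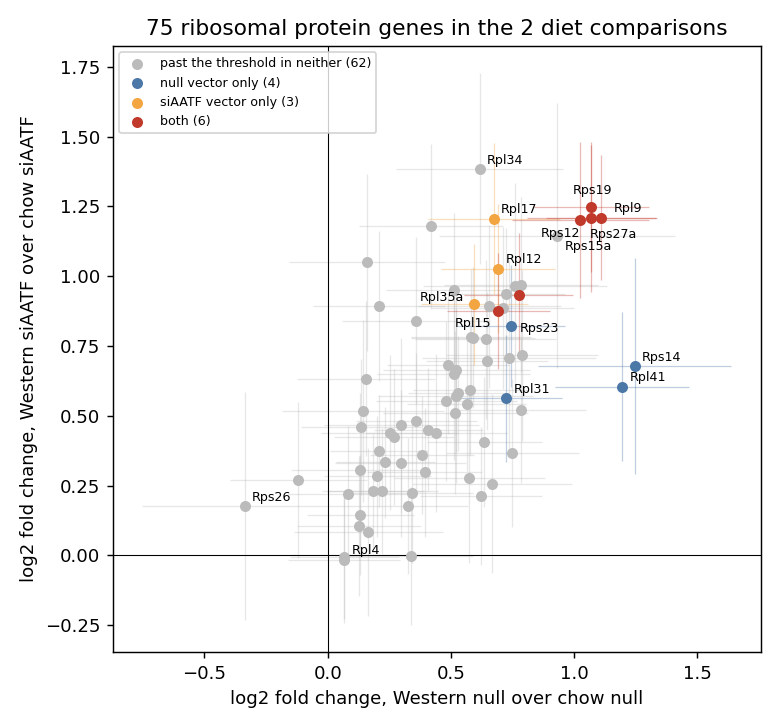
Log2 fold change on Western diet with the null vector (x axis) and with the siAATF vector (y axis) for the 75 tested genes; points are genes, bars are standard errors, and colours show where a gene passed an adjusted p of 0.05. Of the genes, 70 lie where both values are positive, and the 6 that passed in both comparisons lie between 0.69 and 1.11 on the x axis and between 0.88 and 1.25 on the y axis.

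Averaged over both vectors, a comparison added after the 2 diet comparisons were seen, Western diet raised 34 of the 75 genes and lowered none, while 9.61% of all genes were called higher and 8.59% lower. The 34 included 18 of the large and 16 of the small subunit. Among the smallest adjusted p-values were those of Rpl9 (log2 1.16 ± 0.16, adjusted p = 0.000201), Rps19 (1.16 ± 0.16, 0.00028), Rps12 (1.14 ± 0.19, 0.000696), Rps27a (1.11 ± 0.20, 0.00131) and Rpl15 (0.78 ± 0.15, 0.00203), in edgeR's quasi-likelihood test. These 5 passed under each of 22 alternatives. Rps26 was the only gene with a negative value (-0.08 ± 0.29, adjusted p = 0.885), which became 0.21 without chow null replicate 1.

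All 6 Western libraries lay above all 6 chow libraries in 18 of the 75 genes and in 2.82% of all genes tested. Among the 18 were Rpl3, Rpl9, Rpl10, Rpl12, Rpl13a, Rpl15, Rpl17, Rpl19, Rpl27a, Rpl35a, Rpl36, Rpl41, Rps7, Rps12, Rps19, Rps23 and Rps27a. The averaged count was 13 with the span trend removed (median 0.34 in place of 0.55), and 24 without the library with muscle RNA. It ran from 18 without Western null replicate 2 to 41 without chow null replicate 2, and was 20 without chow null replicate 3.

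**Figure D3:**
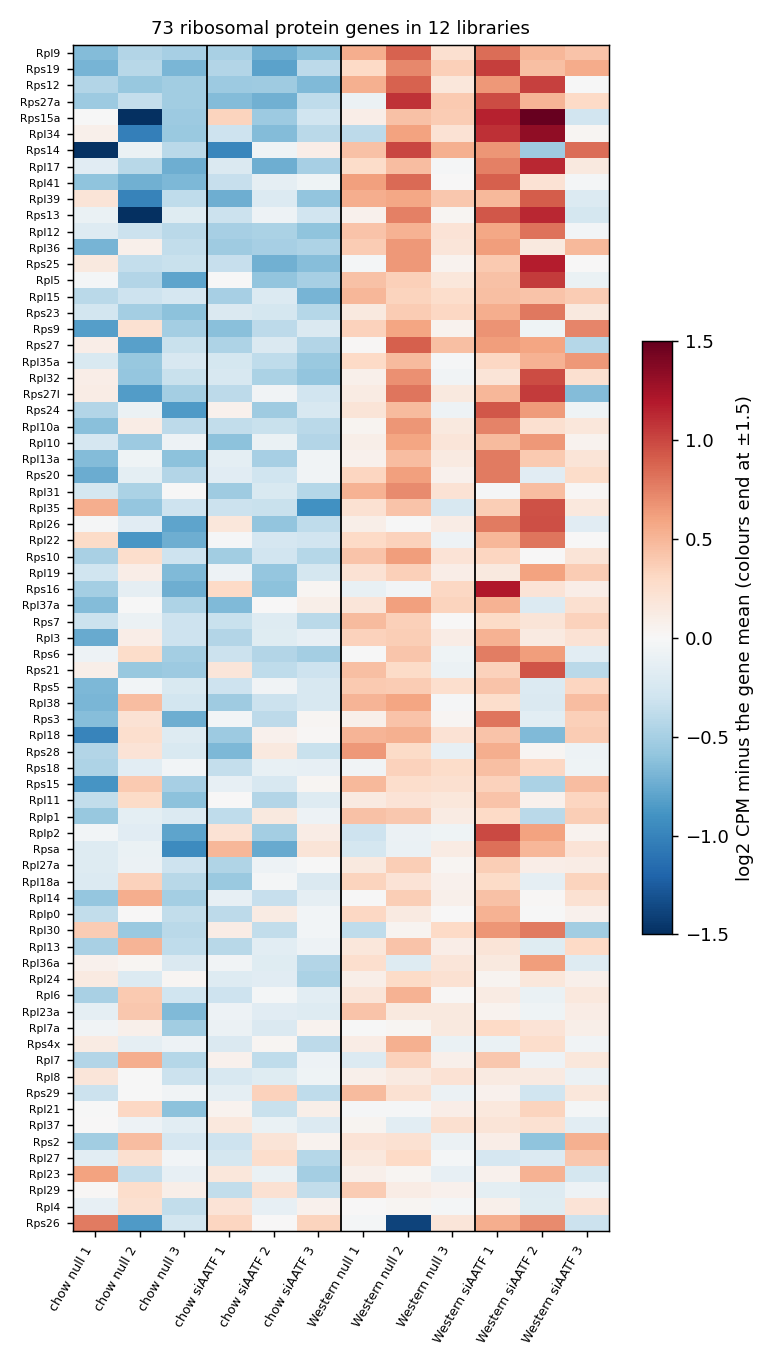
Log2 CPM of 73 of the 75 tested genes (rows, ordered by the averaged diet fold change) in the 12 libraries (columns, by group), each minus the gene's mean over libraries; red is above and blue below the mean. Upper rows, led by Rpl9, Rps19 and Rps12, are mostly blue in the chow columns and mostly red in the Western columns, while Rps26 and Rpl4 at the bottom show no such split.

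Genes with known functions outside the ribosome were found both among those that passed and among those that did not. Rpl5 and Rpl11, which with 5S ribosomal RNA bind Mdm2 and stabilise p53 when assembly fails, were at 92.5 to 158 CPM and 94.6 to 177 CPM in the chow libraries and 149 to 330.2 CPM and 151 to 195 CPM in the Western libraries. Ranges overlapped for both genes. Averaged over vectors, Rpl5 rose by log2 0.80 ± 0.21 (adjusted p = 0.0137) and Rpl11 did not pass (0.42 ± 0.17, adjusted p = 0.105, edgeR quasi-likelihood test). Rps6, the S6 kinase substrate of the small subunit, was at 96.04, 88.9 and 84.7 CPM in chow siAATF and 205, 186 and 108 CPM in Western siAATF, and did not pass there (0.89 ± 0.27, adjusted p = 0.110) or averaged (0.55 ± 0.19, adjusted p = 0.0529).

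Rpl13a, known for silencing inflammatory mRNAs after release from the ribosome, was at 129 to 194 CPM in chow and 210.3 to 346 CPM in Western libraries, without overlap, and passed in the averaged comparison (log2 0.67 ± 0.17, adjusted p = 0.0144). Rpl3, which shapes the peptidyl transferase centre, was at 111 to 202 CPM and 204 to 269 CPM and also passed averaged (0.55 ± 0.17, adjusted p = 0.0332). Rpl10, among the last proteins to join the large subunit, passed averaged at 0.68 ± 0.17 (adjusted p = 0.0122), as did Rpl39 (0.88 ± 0.22, adjusted p = 0.0126) and Rps27 (0.75 ± 0.22, adjusted p = 0.0248). With the span trend removed these 5 genes kept positive values but did not pass: Rpl13a 0.45 (adjusted p = 0.0711), Rpl3 0.40 (0.0800), Rpl10 0.43 (0.139), Rpl39 0.64 (0.0918) and Rps27 0.37 (0.331), while Rpl5 did (0.68, adjusted p = 0.0461). For the paralog Rps27l the value was 0.72 ± 0.25 (adjusted p = 0.0534), which did not pass.

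The P proteins Rplp0, Rplp1 and Rplp2 did not pass averaged over vectors, and Rpl12 beside them did (log2 0.86 ± 0.16, adjusted p = 0.00214, edgeR quasi-likelihood test). Rplp0, to which the other P proteins bind, was at 148 to 213 CPM in chow and 194 to 279.7 CPM in Western libraries, Rplp1 at 116 to 189 CPM and 129 to 232 CPM, and Rplp2 at 53.5 to 108 CPM and 75.04 to 185 CPM. The ranges overlapped in each case. Averaged log2 differences were 0.35 ± 0.16, 0.42 ± 0.18 and 0.39 ± 0.20 (adjusted p = 0.160, 0.110 and 0.181, edgeR quasi-likelihood test). Rpsa (0.38 ± 0.22), the X-linked Rps4x (0.23 ± 0.16) and Rpl22, a large subunit protein that cells can lose (0.59 ± 0.21), did not pass either (adjusted p = 0.252, 0.356 and 0.0592).

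None of the 75 genes passed the threshold between the vectors on either diet in edgeR's test. On Western diet, siAATF over null gave a median log2 fold change of 0.065, against 0.059 for all genes, with 0 of 75 called and 0.871% of all genes called in either direction (2 of the 75 were at an unadjusted p under 0.05). The largest positive values were those of Rplp2 (0.75 ± 0.28), Rpl34 (0.73 ± 0.34) and Rps15a (0.69 ± 0.47), and the largest negative ones those of Rpl29 (-0.34 ± 0.22), Rpl31 (-0.32 ± 0.23) and Rpl18 (-0.30 ± 0.32), with adjusted p from 0.301 to 0.797 in edgeR's quasi-likelihood test. Without a filter on low counts 1 gene passed, Rpl3l, whose counts lay in the library with muscle RNA. DESeq2 and limma-voom called none of the 75. Without that library the median was -0.00041, and again none passed.

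Rplp2 was at 75.04, 87.6 and 89.004 CPM in Western null and 185, 141 and 96.4 CPM in Western siAATF. The Western siAATF libraries were the higher ones, and replicate 1, with muscle RNA, was the highest. Without that library its log2 difference fell from 0.75 to 0.51.

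On chow, siAATF over null gave a median of -0.043 against -0.027 for all genes, 0 of 75 called (0 of 11934 genes, 0%, and 0 of the 75 at an unadjusted p under 0.05). The values ran from -0.49 for Rpl35 to 0.49 for Rpl41, with Rps25 (-0.40 ± 0.29) and Rps6 (-0.35 ± 0.27) near the lower end and Rps15a (0.48 ± 0.48) and Rpsa (0.44 ± 0.31) near the upper end. Rpl41 was at 40.6, 37.3 and 38.7 CPM in chow null and 48.4, 56.02 and 58.9 CPM in chow siAATF, which do not overlap. Its adjusted p was nevertheless 1.00. Of the 75 genes, only Rpl41 had all 3 siAATF libraries above, and 1 gene, Rpl12, had all 3 below. The share over all genes is not given here. Without the 4 libraries over 25% 18S the median was 0.20 and again no gene passed.

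The test of whether diet acted differently under the 2 vectors (the interaction) also called 0 of 75 genes, where 0.193% of all genes were called (0 of the 75 at an unadjusted p under 0.05). The largest values were 0.89 ± 0.45 for Rpl35, 0.77 ± 0.48 for Rpl34 and 0.76 ± 0.41 for Rps25, and the lowest -0.59 ± 0.38 for Rpl41, -0.57 ± 0.54 for Rps14 and -0.41 ± 0.35 for Rplp1. All 6 had adjusted p between 0.572 and 0.779 in edgeR's quasi-likelihood test. DESeq2 and limma-voom called none of the 75 in the interaction or between the vectors on chow. Standard errors in the interaction had a median of 0.37 on the log2 scale.

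**Figure D4:**
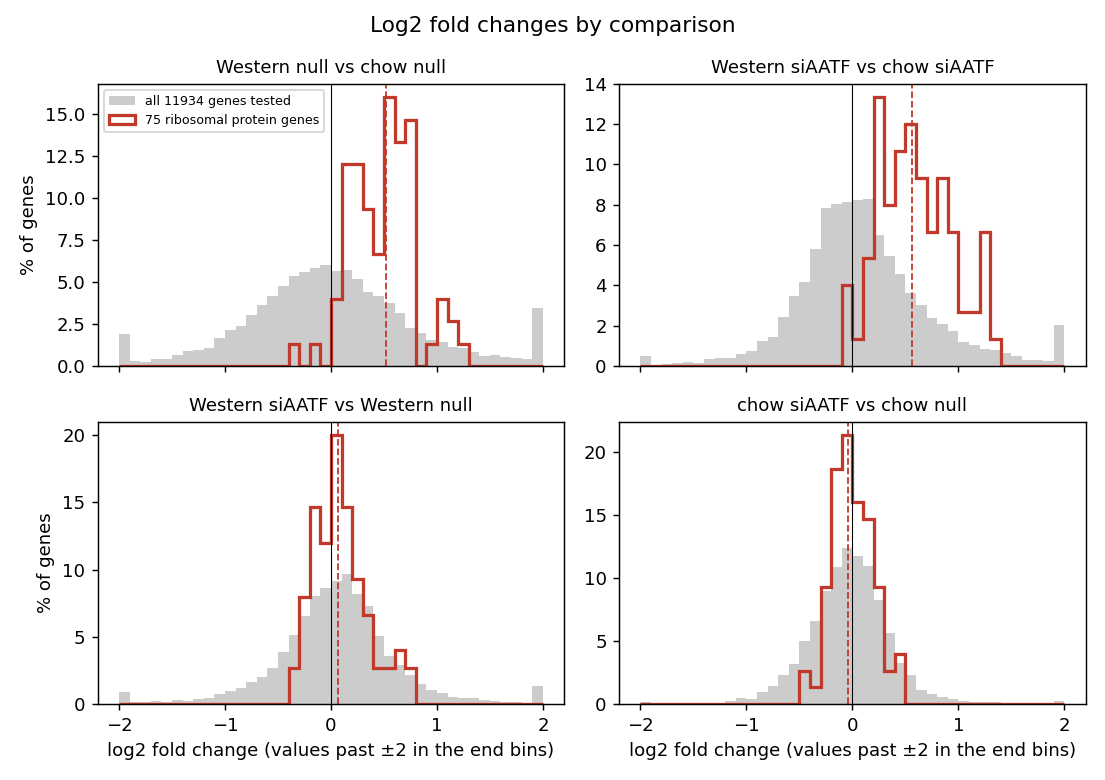
Distribution of log2 fold changes (x axis, values past 2 in either direction in the end bins) as the percent of genes (y axis) for all 11934 genes tested (grey) and the 75 ribosomal protein genes (red line, median dashed) in 4 comparisons. The red medians lie at 0.52 and 0.56 in the diet panels and at 0.065 and -0.043 in the vector panels.

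Within groups, the genes did not all vary together. On the first principal component of the deviations from group means, which held 50.8% of the variance over the 75 genes, chow null replicate 1 (-3.01) and Western siAATF replicate 2 (-3.01) lay opposite chow null replicate 2 (3.05) and Western siAATF replicate 3 (2.89). The other 8 libraries lay between -1.13 and 0.60. Rps15a (loading -0.35), Rps13 (-0.23) and Rps26 (-0.21) marked the negative end, followed by Rps27l (-0.20) and Rpl34 (-0.20). Rps14 (0.25) and Rpl18 (0.20) marked the positive end, so both ends held genes of both subunits. Chow null replicate 1 and Western siAATF replicate 2 both held over 25% 18S, as did chow null replicate 2 at the other end, and the part of 18S in this split was not tested.

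The largest within-group SD of log2 CPM was that of Rps15a (0.81), followed by Rps26 (0.66), Rps13 (0.62) and Rps14 (0.61). Rps15a was at 37.02, 7.34 and 25.4 CPM in chow null and 83.1, 111 and 30.4 CPM in Western siAATF, so that the highest replicate of each group was several times the lowest. Rps14 was at 41.9, 109.5 and 88.5 CPM and 186, 81.2 and 210.4 CPM in the same groups, and its highest library in each was the lowest of Rps15a. Among the steadiest were Rpl24 (0.14), Rpl15 (0.14) and Rpl8 (0.15).

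**Figure D5:**
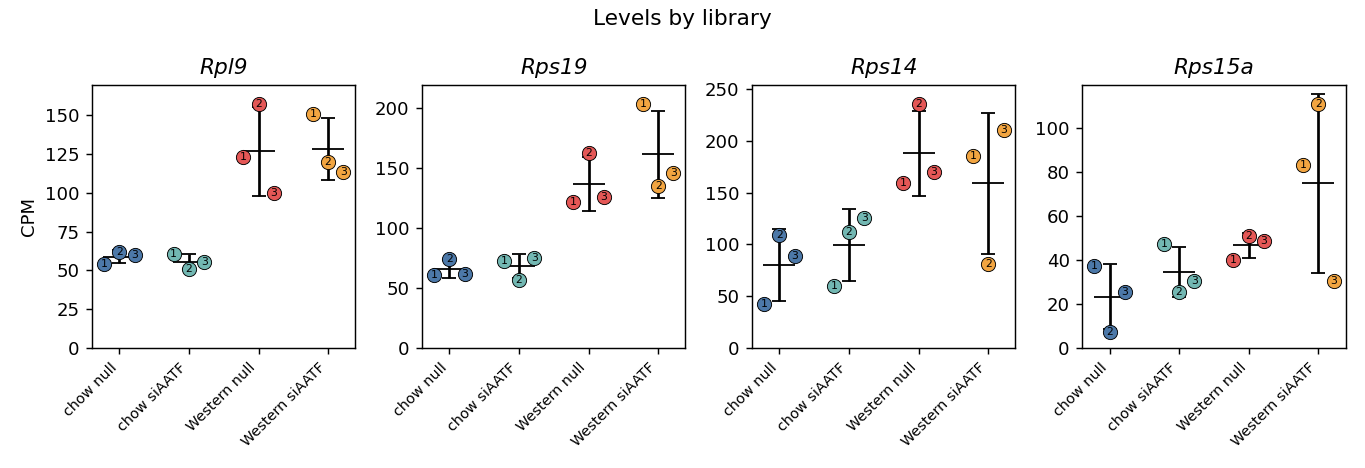
CPM (y axis) of Rpl9, Rps19, Rps14 and Rps15a by group (x axis); numbered points are libraries, bars are the mean and SD of 3. Rpl9 and Rps19 are separate between the diets in every library, while in Western siAATF replicate 2 Rps14 is low and Rps15a high, and the reverse holds in replicate 3.

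Ribosomal proteins whose names fall outside the rule behaved in part like the 75. Of 6 tested, none passed with the null vector or with siAATF, and Fau, made as a fusion with a ubiquitin-like protein, passed averaged over vectors (log2 0.72 ± 0.22, adjusted p = 0.0338, edgeR quasi-likelihood test). With the span trend removed Fau did not pass (0.41, adjusted p = 0.130). Their median was 0.32 with the null vector and 0.31 with siAATF. Rack1, a signalling scaffold on the small subunit, had 0.39 ± 0.22 and 0.21 ± 0.22 and did not pass. Rps3a1, a small subunit protein outside that list and named after its values were seen, was at 97.3 to 142 CPM in chow and 147 to 223 CPM in Western libraries, without overlap. It passed averaged (0.58 ± 0.16, adjusted p = 0.0227) and in neither diet comparison alone (0.53 ± 0.23 and 0.63 ± 0.23). Of 2 processed pseudogenes that were tested, none passed in either diet comparison, and Rps10-ps2 passed averaged (adjusted p = 0.0376).

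Other TOP mRNAs and translation factors, 27 tested, had medians of 0.23 and 0.19 in the 2 diet comparisons. Vim, an intermediate filament gene of mesenchymal cells with a TOP sequence, was the only one of them past the threshold with the null vector (log2 1.99 ± 0.34, adjusted p = 0.00144), none passed with siAATF, and Vim, Cct4 (0.58 ± 0.16) and Fau passed averaged. The elongation factors Eef1a1 (0.29 ± 0.23 and 0.11 ± 0.23) and Eef2 (-0.22 ± 0.25 and -0.25 ± 0.25) did not pass. Mitochondrial ribosomal proteins, 77 tested, had medians of 0.30 and 0.24. Among them Mrpl12 passed with the null vector (1.02 ± 0.22, adjusted p = 0.00597, edgeR quasi-likelihood test), none with siAATF and 8 averaged. Mrps24 (0.86 ± 0.24) and Mrpl41 (0.77 ± 0.22) were among the 8. Of all genes tested, 6.44% were called higher with the null vector, 0.763% with siAATF and 9.61% averaged. The 3 of 27 and 8 of 77 called averaged are near that last share. Ribosome biogenesis factors, 41 tested and Aatf among them, had medians of -0.004 and 0.21 and no call in either comparison, and Nhp2, a protein of snoRNA particles, passed averaged (0.61 ± 0.19, adjusted p = 0.0355) but not with the span trend removed (0.40, adjusted p = 0.177).

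Of 17 regulators of ribosome production tested, 1 rose and 2 fell on Western diet with the null vector. Of all genes tested, 6.44% were called higher and 6.77% lower there. With siAATF, 1 of the 17 fell, where 0.721% of all genes were called lower. The medians of the 17 were -0.13 and -0.12, against -0.028 and 0.044 for all genes. Larp1, the LARP1 gene, was at 279, 295 and 223 CPM in chow null and 111, 102 and 127 CPM in Western null, and at 328, 290.1 and 303 CPM in chow siAATF and 159, 133 and 186 CPM in Western siAATF. All 6 chow libraries were above all 6 Western libraries. It fell by 1.23 ± 0.22 on the log2 scale with the null vector (adjusted p = 0.00205) and dropped by 0.95 ± 0.22 with siAATF (adjusted p = 0.0391, edgeR quasi-likelihood test). With the span trend removed these were -1.11 (adjusted p = 0.00680) and -0.90 (adjusted p = 0.0645).

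Tsc1, an inhibitor of mTORC1, fell by 0.75 ± 0.23 on the log2 scale with the null vector (adjusted p = 0.0378), with 38.7, 42.9 and 37.7 CPM in chow null and 18.3, 27.9 and 24.1 CPM in Western null. Myc was at 4.57, 8.47 and 3.40 CPM in chow null and 13.3, 12.3 and 15.1 CPM in Western null and rose by 1.46 ± 0.43 (adjusted p = 0.0350). With siAATF neither passed (Tsc1 -0.64 ± 0.22, Myc 1.12 ± 0.45), and both lost their call with the null vector when the span trend was removed (adjusted p = 0.0868 and 0.0682). Averaged over vectors, both passed in edgeR's quasi-likelihood test (Tsc1 -0.69 ± 0.16, adjusted p = 0.00722, and Myc 1.29 ± 0.31, adjusted p = 0.00993). They also passed averaged with the span trend removed (Tsc1 -0.62, adjusted p = 0.0154, and Myc 1.10, adjusted p = 0.0180). Deptor, which binds and inhibits mTOR, passed averaged (-0.60 ± 0.16, adjusted p = 0.0137), though not with the span trend removed (-0.40, adjusted p = 0.0778). Mtor itself had 0.20 ± 0.33 and -0.04 ± 0.33 and did not pass.

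Cell type markers moved with diet beside these genes. Of 10 markers of lipid-associated macrophages, 8 rose with the null vector and 3 with siAATF, and their summed level was 245 to 384 CPM in the chow libraries, 921 to 969 in Western null and 467 to 987 in Western siAATF. Of 9 tested stellate cell markers, 6 rose with the null vector and none with siAATF (199 to 347 CPM in chow, 1156 to 1633 in Western null, 296 to 805 in Western siAATF), with Lrat at 0. Of 4 tested cholangiocyte markers, with Spp1 also on the macrophage list, 2 rose with the null vector (19.9 to 39.7 CPM in chow, 98.1 to 223 in Western null, 25.1 to 43.3 in Western siAATF). Kupffer cell markers gave 3 higher and 2 lower of 9 tested with the null vector, with Cd5l at 0, and summed to 147 to 333 CPM in chow, 372 to 726 in Western null and 334 to 817 in Western siAATF. Endothelial markers gave 4 higher of 9 tested and summed to 230.2 to 327 CPM in chow, 378 to 464 in Western null and 318 to 406 in Western siAATF. Hepatocyte markers summed to 79219 to 108850 CPM in chow and 53672 to 71818 in Western libraries, with 4 of 10 lower with the null vector. The sum of neutrophil markers was 125 CPM in Western siAATF replicate 1, 145 CPM in replicate 2 and at most 12.6 elsewhere, and the summed markers of B cells were at most 13.3 CPM and those of T and NK cells at most 7.49 CPM.

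The part of these cells in the diet difference was not tested. Between the vectors on Western diet, stellate and cholangiocyte sums were lower in Western siAATF than in Western null without overlap. Yet none of the 9 tested stellate markers was called lower there, and 1 of the 4 tested cholangiocyte markers was. Of 10 macrophage markers, 5 were called lower, but the macrophage sums overlapped. The sums of Kupffer cell, endothelial and hepatocyte markers overlapped as well, with 1 Kupffer cell and 1 hepatocyte marker called higher in Western siAATF. Without the 4 libraries over 25% 18S, the diet medians of the ribosomal protein genes were 0.68 with the null vector and 0.59 with siAATF, with 3 and 2 genes past the threshold.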

How the data were processed

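Liver RNA of 12 libraries was sequenced from libraries made, per the labels' protocols, with SMART-Seq reagents. The authors deposited raw read counts per gene. Per the submitters' processing notes, the tools named were STAR 2.7.11, featureCounts 2.0.1, DESeq2 1.42.0 and R 4.3.2, with build GRCm39. Settings for strand and for reads with several matches were not given in the sources used here. Lengths in the file are whole gene spans, so introns were counted.

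The members and gene lists were chosen with earlier results of these data known. Counts were fitted in R 4.3.3 with edgeR 4.0.16 (TMM scaling, filterByExpr by group, quasi-likelihood test, all 4 groups in 1 fit, 8 residual degrees of freedom). P-values were adjusted by Benjamini-Hochberg over all 11934 genes tested of 50499 listed, of which 28210 had no count. The threshold was an adjusted p of 0.05, and ± in the text is the SE of a log2 fold change unless SD is named. This SE was derived as the absolute log2 fold change divided by the square root of the quasi-likelihood F statistic. DESeq2 1.42.0 and limma-voom (limma 3.58.1) served as alternatives, beside other scalings, no filter, the groups compared alone, a replicate block, an offset for gene span, an adjusted p of 0.1, and leaving out libraries. The main edgeR fit and the fit with the gene span offset were tested on simulated data, and the other alternatives were not. Tables were handled in pandas 2.3.3 and plotted in matplotlib 3.10.9. Members held 15691 to 118194 counts per library. The floor of 3 counts covers counting error only, as reads carry no molecular identifiers. No column of values was left unused.

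Named were, per comparison, up to 6 members past the threshold in each direction by adjusted p, or the 3 largest changes where none passed. Also named were 20 members fixed whatever their value, the 4 highest and 4 lowest per kb, those at 0, and up to 4 genes of each list where any passed. Other members were named after their values were seen: Rpl28, Rpl6l, Rps23, Rpl31, Rps14, Rpl35a, Rpl36, Rpl24, Rpl8, Rps13, Rps26 and Rpl18 in the spread within groups, and the 18 members with separate diets. The skeletal muscle list was written after Rpl3l was seen in 1 library. Same-numbered libraries did not vary together (18 correlations of deviations from group means, -0.378 to 0.259, with 1 above 0.1), so the numbers were not taken to pair samples. A few genes that the rules name are not reported here, and they stay in the counts, medians and fits.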

Additional observations from a re-analysis of the deposited data

Results flagged for a closer look

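Rpl3l, which was outside the tests because of its low counts, had 42 counts in Western siAATF replicate 1. It had 1 count in Western null replicate 1 and 0 in the other 10 libraries, the chow libraries included. The same library held 27476 counts on 12 skeletal muscle genes, of which Ttn took 10974, against 0 to 65 elsewhere. Whether the muscle RNA entered with the tissue or later was not tested.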

How the results depend on the processing

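No direction of a diet median turned under any alternative run, and none of the 75 genes was called lower in any of them. The count of genes higher on Western diet, 10 with the null vector and 9 with siAATF, was 18 and 14 at an adjusted p under 0.1 and 18 and 16 in DESeq2. It was 16 with the null vector when scaled by library totals without 18S. With only the groups compared it was 0 with siAATF, at 15 with the null vector. Without a filter on low counts 1 gene was called between vectors on Western diet. Without the 4 libraries over 25% 18S the counts were 3 and 2, with medians of 0.68 with the null vector, 0.20 between vectors on chow and -0.11 for the interaction. Scaling by totals without 18S gave medians of -0.072 between vectors on Western diet and -0.028 for the interaction. With 18S kept in the total, the share of counts on the 83 genes was 0.718% in chow null, 0.775% in chow siAATF, 1.25% in Western null and 1.01% in Western siAATF.

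With the gene span offset the counts were 2 and 3, and 13 averaged over vectors, with medians of 0.15 with the null vector, 0.35 for the interaction and 0.34 averaged. The replicate block gave 2 genes with siAATF and 7 with the null vector. With block and span offset together the counts were 0 with the null vector, 2 with siAATF and 10 averaged, with medians of 0.13, 0.33 for the interaction and 0.34 averaged. The replicate numbers are only names here, and 1 of 12 libraries correlated best with its own number.

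Leaving out each library in turn gave 2 to 16 genes with the null vector (median 0.39 to 0.62), 0 to 23 with siAATF (median 0.41 to 0.57) and 18 to 41 averaged (median 0.48 to 0.62). The comparison averaged over vectors and its alternatives were chosen after seeing the data. The cause of these changes was not tested. Depth ran from 1646853 counts, where 3 counts stand for 1.48 CPM, which limits the members below the filter.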
